A study of Rattus norvegicus with 52 samples.

Results

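Microdissected liver sections made up 4 of the 52 arrays of this study of F344 rats given clofibric acid (CA), and they were compared with 20 stained-section arrays. They were taken by their labels alone. In the microdissected group 2 arrays came from untreated rats, 1 from rats at 0.29% CA and 1 from rats at 0.54% CA. In the stained group 8 arrays came from untreated rats, 7 from rats at 0.29% and 5 from rats at 0.54%. The labels give total RNA from liver sections, and they name no age, no sex, no length of treatment, no stain, no captured cell type, no number of captured cells and no animal behind any array. Nothing shows that the replicates came from separate rats, so p-values cover only the variation from array to array, which may be technical. Of the other preparations, 22 entire-section arrays, 3 dehydrated-section arrays and 3 arrays from sections labelled LCM-reference-time (1 array per dose in each of the last pair) were in neither group, and they serve below as outside measurements. The labels do not say what LCM-reference-time means, nor whether the microdissected sections went through the same stain as the stained ones.

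Laser capture microdissection (LCM) lifts chosen cells out of a tissue section under a microscope. The section is fixed, stained and dehydrated first, so RNA can be lost or broken before and during capture, and the captured amount is small. Clofibric acid is a fibrate that activates the nuclear receptor PPAR alpha in hepatocytes, the main cell type of liver. A section also holds Kupffer cells, endothelial cells, stellate cells, bile duct cells and blood, which a capture can leave behind or keep. Array labelling of that time started at the poly(A) tail, so in broken RNA the 3′ end of a transcript gives more signal than its 5′ end, and arrays carry control probe sets at the 5′ end, the middle and the 3′ end of GAPDH, a glycolytic enzyme, and of beta-actin, a cytoskeletal protein. 5S rRNA is a small structural RNA of the ribosome and is not polyadenylated in the way that messenger RNA is.

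Each array reported 8740 probe sets (groups of short probes against 1 transcript) besides 59 controls. The intensities used here are the authors' own, and 55.5% of them lay below 20. The probe set IDs carry sequence accessions but no gene names, and 0 of the 8740 probe sets could be tied to a gene through the gene table used here. The lists of hepatocyte, Kupffer cell, endothelial, stellate, bile duct and blood markers therefore had no member that could be named. Non-hepatocyte markers were not analysed here, and the selection of cells by capture cannot be told apart from loss of RNA in what follows. The control transcripts are the only named transcripts, and other probe sets are given by ID, at most 2 that were higher and 2 that were lower in a comparison. Values were quantile normalized, set to a floor of 4 and put on a log2 scale, on which the floor is 2.

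The dose labels of the microdissected arrays were checked on a probe set that was high with CA in the other preparations, chosen after its values were seen. The deposited intensity of j02749_at was 123 and 70 on the untreated microdissected arrays, 3490 at 0.29% and 6123 at 0.54%. In stained sections it ran from 69 to 473 without CA and from 3811 to 8164 with CA, so the treated and untreated arrays did not overlap within either preparation.

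RNA from the microdissected sections gave dimmer arrays on which fewer bright probe sets carried more of the signal. The mean intensity after trimming 2% of probe sets at each end was 79.3 and 47.2 on the untreated microdissected arrays, 45.5 at 0.29% and 94.1 at 0.54%. Stained sections ran from 56.3 to 121 with a median of 97.1. The second untreated array and the 0.29% array lay below every stained array, and the other two lay inside the stained range. The difference adjusted for dose was -29.1 (66.6 ± 24.1, SD, n = 4, against 96.4 ± 15.6, SD, n = 20; exact permutation test within dose, two-sided, p = 0.00185, adjusted p = 0.00432).

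The number of probe sets above an intensity of 66 was 1838, 1467, 1329 and 2140 on the microdissected arrays, taken in the order untreated 1, untreated 2, 0.29% and 0.54%. On stained arrays it ran from 1482 to 2374 with a median of 2132. Again untreated array 2 and the 0.29% array lay below all stained arrays. The dose-adjusted difference was -391 probe sets (exact permutation p = 0.000926, adjusted p = 0.00432). The 50 brightest probe sets took 28.4%, 44.1%, 35.7% and 27.2% of the signal on the microdissected arrays, against 16.8% to 34.3% (median 22.2%) on stained arrays. The dose-adjusted difference was 10.01 percentage points (exact permutation p = 0.0037, adjusted p = 0.00648). The share of probe sets with an intensity below 0 was 26.5% ± 2.41 (SD, n = 4) against 24.98% ± 2.26 (SD, n = 20), a difference that did not pass the test (exact permutation p = 0.255, adjusted p = 0.297). Labels were permuted within dose over 2160 arrangements, which cannot give a p below 0.000463, and p-values were adjusted over 7 measures.

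The 5S rRNA probe set was higher in microdissected sections. Its intensity was 97, 285, 319 and 754 on the microdissected arrays in the same order. On stained arrays it ran from 14 to 241 with a median of 40, and on the 22 entire-section arrays from 22 to 115 with a median of 44.5. On 3 of the 4 microdissected arrays the signal exceeded that of every stained array, and untreated array 1 lay inside the stained range. The dose-adjusted log2 difference was 2.59 (exact permutation p = 0.00139, adjusted p = 0.00432), and this measure was added after its values were seen. Among stained sections 3 arrays stood apart with 5S signals of 232 (untreated replicate 8), 241 (0.29% replicate 7) and 229 (0.54% replicate 5), while the other 17 ran from 14 to 129. The 3 LCM-reference-time arrays gave 117, 587 and 152 at 0, 0.29% and 0.54% CA; these overlap the microdissected values, and the 3 dehydrated-section arrays gave 10 to 47.

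The 3′/5′ ratios of GAPDH and beta-actin were not higher after microdissection than in stained sections. The GAPDH ratio was 14.3 and 9.22 on the untreated microdissected arrays, 6.20 at 0.29% and 3.02 at 0.54%, all inside the stained range of 2.59 to 18.9 (median 8.45). The dose-adjusted log2 difference of -0.15 did not pass the test (2.82 ± 0.95, SD, n = 4, against 2.91 ± 0.81, SD, n = 20; exact permutation p = 0.714, adjusted p = 0.714), and its sign turned to 0.08 without the 0.54% array. In entire sections the GAPDH ratio had a median of 1.54, below every microdissected array and every stained array. Single entire arrays ran from 1.18 to 6.49, so the preparations overlapped. The highest entire value exceeded both treated microdissected arrays and lay inside the stained range. The 3′ end of GAPDH gave intensities of 616, 535, 1110 and 1877 on the microdissected arrays and its 5′ end 43, 58, 179 and 622, against stained medians of 1594 and 155.5. Intensities under 4 were set to 4 before a ratio was taken.

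The beta-actin ratio was 4.48, 3.52, 2.89 and 2.67 on the microdissected arrays against 3.08 to 10.9 (median 5.34) in stained sections. It was lower after microdissection by -0.75 on the log2 scale (1.73 ± 0.33, SD, n = 4, against 2.51 ± 0.50, SD, n = 20; exact permutation p = 0.0102, adjusted p = 0.0143). Both treated microdissected arrays lay below every stained array, and both untreated ones inside the range. Without the 0.29% microdissected array the difference was -0.58 and no longer passed (adjusted p = 0.119). The 5′ end of beta-actin was dim on these arrays, at 23, 23, 35 and 117 in microdissected sections and at a median of 39 in stained sections, and its 3′ end gave 103, 81, 101 and 312 against a stained median of 219. The LCM-reference-time arrays had beta-actin ratios of 1.71 to 3.69. The 3′ control probe set of hexokinase, which phosphorylates glucose, ran from -8 to 3 in microdissected and from -15 to 1 in stained sections, against a median of 10 in entire sections, while the middle probe set reached 31 in microdissected and 46 in stained sections.

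**Figure D1:**
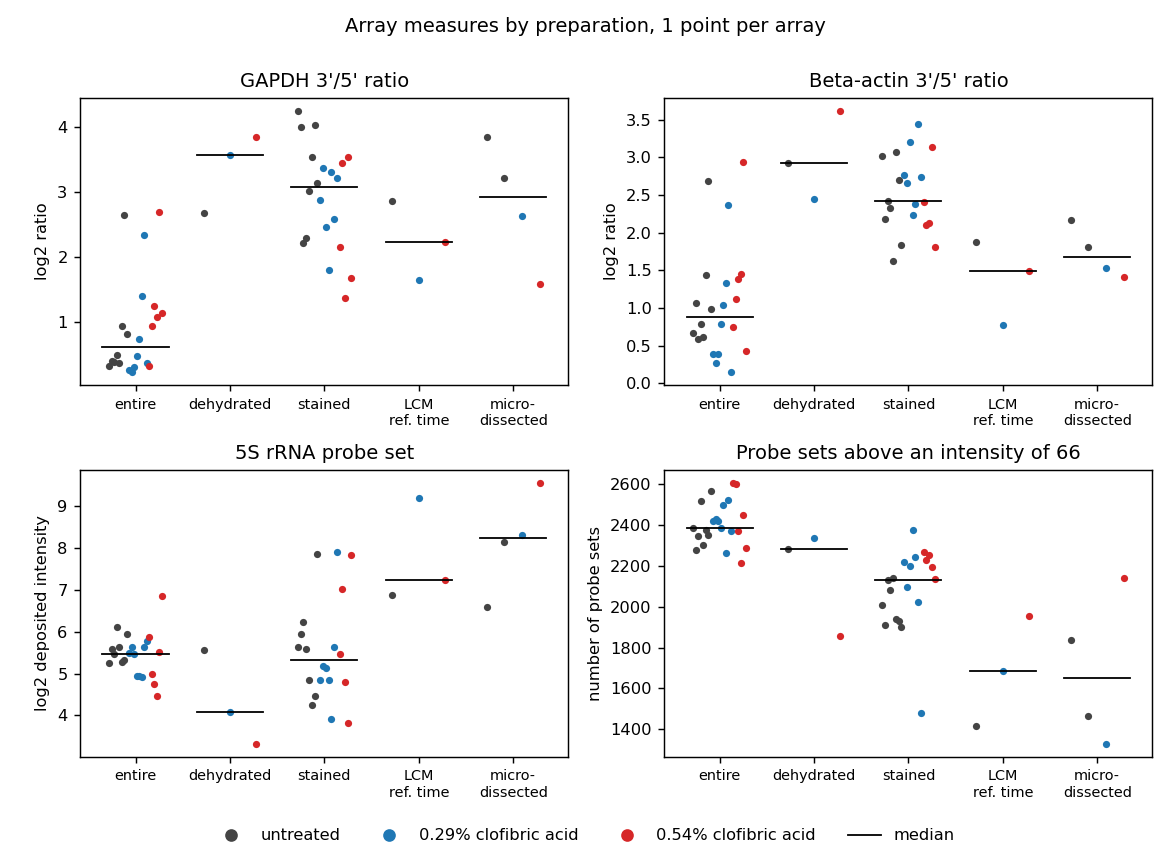
Measures of each array by preparation, 1 point per array, coloured by CA dose, with a line at the median: log2 of the GAPDH and beta-actin 3′/5′ ratios, log2 of the 5S rRNA intensity, and the number of probe sets above an intensity of 66. Microdissected arrays overlap stained arrays in the GAPDH ratio, while 3 of the 4 exceed all stained arrays in 5S rRNA and 2 fall below all of them in the number of probe sets above 66.

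Across the array, few bright probe sets were called and the calls lay in probe sets of low and middle level. Of 8196 probe sets tested, 113 were higher and 73 lower in microdissected than in stained sections with dose as a covariate (limma, Benjamini-Hochberg adjusted p under 0.05), which is 2.27% of those tested (1.38% higher and 0.891% lower). The median difference over all tested probe sets was -0.03 on the log2 scale, and 84 of the higher and 69 of the lower calls were at least 2-fold. At an unadjusted p under 0.05 there were 1566 probe sets, or 19.1%. With scaling of each array to one trimmed mean in place of quantile normalization the calls were 200 higher and 57 lower, so the share of higher calls was 77.8% in place of 60.8%, and with a floor of 20 it was 80.9% (89 higher, 21 lower).

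The level in entire sections, which took no part in the comparison, separated the calls. Among 3981 probe sets under 20 in entire sections, 96 were higher and 10 lower in microdissected sections, with a median difference of 0.06. Among 1767 probe sets from 20 to 66, 7 were higher and 39 lower (median -0.15). Among 1126 from 66 to 200, 7 were higher and 23 lower (median -0.22). Above 200, only 3 of 1322 probe sets were higher and 1 lower, or 0.303% against 2.27% over all, and of the 182 above 2000, which hold the most abundant liver transcripts, 0 were called. The interquartile range of the differences was 0.69 under 20, where many values sit at the floor, 1.08 from 20 to 66, 0.82 from 66 to 200, 0.59 from 200 to 600 and 0.21 above 2000. These groups differ in how much signal stands above the floor, and the split is a description with no test.

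**Figure D2:**
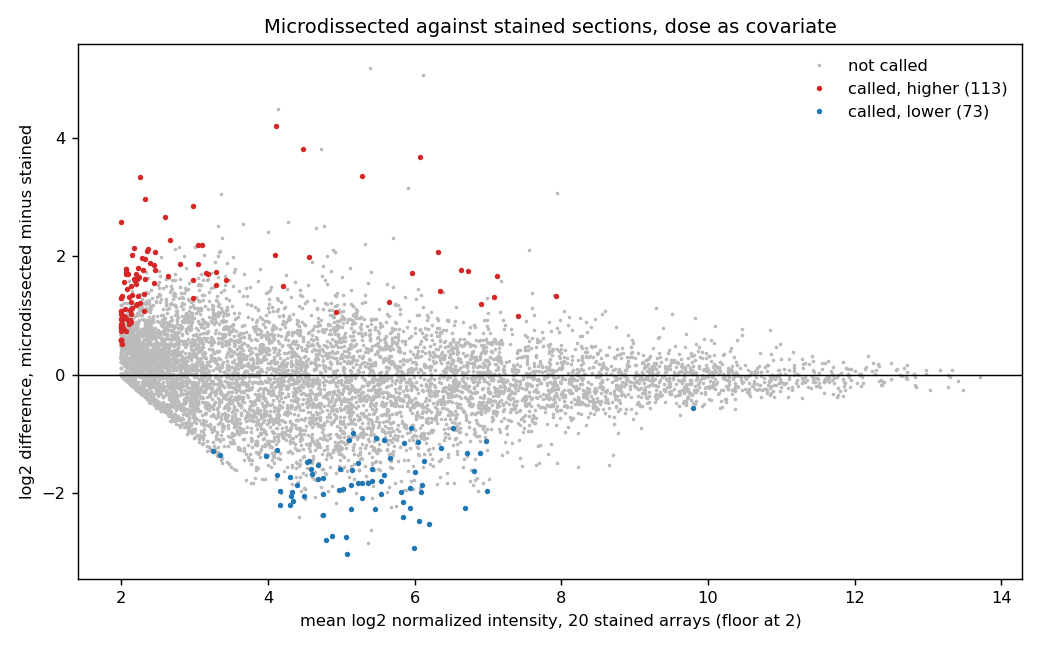
The log2 difference of each of 8196 probe sets, microdissected minus stained with dose as a covariate, against its mean log2 normalized intensity on the 20 stained arrays (floor at 2); red and blue points are the 113 higher and 73 lower calls and grey points the others. Higher calls crowd near the floor, lower calls lie mostly between 4 and 7, and the differences narrow at the highest levels; the sloping lower edge on the left is the floor.

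The higher calls were mostly of transcripts with hardly any signal in stained sections. Their median level was 2.20 in stained and 3.79 in microdissected sections on the log2 scale, and 80 of the 113 were at the floor on 50% or more of the stained arrays, 22 of them on all 20. Over all 8196 tested probe sets, 2501 were at the floor on 50% or more of the stained arrays and 138 on all 20. Those 22 were tested only through the microdissected arrays where they are high and have no spread among stained arrays, so they had to be higher if they differed. With presence above the floor required on at least 4 arrays, 81 higher and 66 lower calls were made. The 113 were above the floor on all 4 microdissected arrays in 57 cases, against 3694 of all 8196 tested. The differences ran from 0.53 to 4.20 with a median of 1.45. The lower calls started from a median level of 5.23 in stained sections and stood at 3.39 in microdissected sections, with differences from -3.03 to -0.57 and a median of -1.79. Of these 73, 53 were above the floor on all 20 stained arrays, while 37 were at the floor on at least 50% of the microdissected arrays and 4 on all of them. Over all tested probe sets, 3169 were above the floor on all 20 stained arrays. At the floor were 3112 on 50% or more of the microdissected arrays and 823 on all 4 of them. Values of the preparations did not overlap in 11 of the higher and 3 of the lower calls, which are all 14 such probe sets among the 8196. The true ratio of a probe set at the floor is unknown, and its fold change can be too small or too large. Normalization also raised low values on dim arrays. A deposited intensity of 12 became 22.8 on the 0.29% microdissected array and 11.8 on stained 0.29% replicate 5.

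More probe sets were at the floor on some of the microdissected arrays. Of the probe sets at 20 to 66 in entire sections, 12.3% and 23.7% were at the floor on the untreated microdissected arrays, 24.5% at 0.29% and 10.5% at 0.54%. On stained arrays the share ran from 4.23% to 16.4% (median 9.17%), so untreated array 2 and the 0.29% array exceeded all stained arrays and the other two did not. At 66 to 200 the shares were 6.21%, 9.32%, 9.67% and 2.31%, against 0.355% to 8.34% (median 3.06%). At 200 to 600 they were 2.15%, 4.29%, 2.76% and 0.460%, inside the stained range of 0 to 5.06%. Before any normalization, 48.0%, 25.6%, 16.7% and 58.5% of the probe sets at 66 to 200 in entire sections exceeded 66 on the microdissected arrays, and 25.02% to 77.9% (median 62.2%) did on stained arrays.

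**Figure D3:**
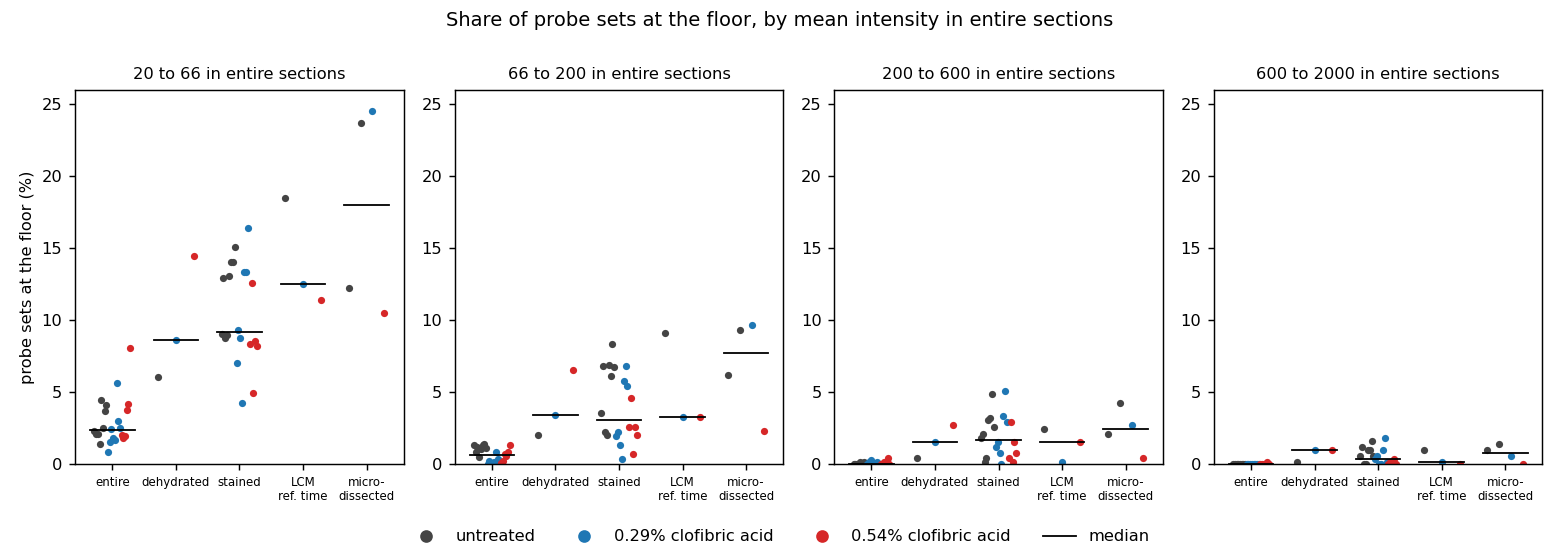
Share of probe sets at the floor (%) on each array, 1 point per array coloured by dose with a line at the median, in 4 panels by mean intensity in entire sections. In the panel for 20 to 66 the 4 microdissected arrays lie at 10.5% to 24.5% against a stained median of 9.17%, and in the panel for 600 to 2000 no array exceeds 1.84%.

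The whole profile of each microdissected array was set against those of entire and stained sections. Over the 8740 probe sets, Pearson's r between an array and the mean of the entire sections at its dose was 0.883 and 0.836 for the untreated microdissected arrays, 0.849 at 0.29% and 0.931 at 0.54%. Stained arrays gave 0.856 to 0.964 with a median of 0.922, and each entire array against the others of its dose 0.937 to 0.985, which none of the 4 reached. Against the mean of the stained sections of the same dose the 4 values were 0.960, 0.895, 0.885 and 0.944, and a stained array against the others gave 0.897 to 0.971. Untreated array 2 and the 0.29% array lay below every stained array on both measures. These correlations run across probe sets, which are not independent, and the array's dimness enters them through the floor. The 0.54% array, the brightest of the 4, stood nearest to entire sections.

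The probe sets were also counted by the kind of sequence that their IDs give. Among 3269 probe sets derived from expressed sequence tags (ESTs, single reads of cDNA clones), 42 were higher and 47 lower, with a median difference of -0.10. Among 586 probe sets from annotated coding sequences, 7 were higher and 0 lower, with a median of 0.11. Among 3934 probe sets from whole database entries, 57 were higher and 24 lower, with a median of -0.01. The small classes gave 5 higher and 1 lower of 257 (mRNA), 1 and 1 of 79 (exon) and 1 and 0 of 71 (UTR). Within the same calls, among probe sets at 20 to 200 in entire sections, 4 of 1291 EST probe sets were higher and 41 lower (median -0.30), 0 of 156 coding-sequence probe sets were called (median 0.04), and 10 of 1323 whole-entry probe sets were higher and 19 lower (median -0.11). These are counts beside the 2.27% over all probe sets, with no test between classes.

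Among the higher calls, the largest difference was at rc_aa894148_s_at, an EST probe set with no gene name here. Its deposited intensity was 37 and 471 on the untreated microdissected arrays, 261 at 0.29% and 288 at 0.54%. On the 20 stained arrays it ran from 0 to 134 with a median of 12.5. The 3 stained arrays with high 5S rRNA held its highest values there, at 124, 68 and 134, and microdissected untreated array 1 lay among the stained values. The fitted difference was 4.20 ± 0.91 (SE) on the log2 scale, an 18.4-fold difference of normalized intensities (limma, adjusted p = 0.0169). In the outside preparations it was 293, 219 and 63 on the LCM-reference-time arrays, 4 to 7 on dehydrated sections and -1 to 41 on entire sections.

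The second, among higher calls above the floor on all 4 microdissected arrays, was rc_aa893870_g_at, also an EST probe set. Its intensity was 40, 517, 249 and 275 on the microdissected arrays, in the order untreated 1, untreated 2, 0.29% and 0.54%. On stained arrays it ran from 2 to 258 with a median of 14, and the 3 arrays with high 5S rRNA gave 258, 107 and 118. The groups overlapped through untreated array 1 and those stained arrays. The difference was 3.81 ± 0.94 (SE, 13.98-fold; limma, adjusted p = 0.0387). The other probe set of the same accession moved alike, by 3.67 ± 0.95 (SE; adjusted p = 0.0451). The LCM-reference-time arrays gave 404, 530 and 93, and the dehydrated sections 1 to 13.

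Among the lower calls above the floor on every stained array, the largest fall was at ab014722_g_at. Its intensity was 46, -12, 12 and -4 on the microdissected arrays, of which 2 stood above the floor after normalization. On stained arrays it ran from 12 to 205 with a median of 80, and the 3 arrays with high 5S rRNA gave 12, 46 and 33. After normalization 1 of those 3, 0.29% replicate 7 at 6.48 on the log2 scale, lay among the other stained arrays of its dose. It fell by 2.52 on the log2 scale (SE 0.55, 5.74-fold lower; limma, adjusted p = 0.0171). The other probe set of this accession differed by -0.22 ± 0.68 (SE; adjusted p = 0.894), so the pair disagreed. In entire sections the intensity was -30 to 88 with a median of 17.5, below that of stained sections, and in dehydrated sections it was 84 to 128. The LCM-reference-time arrays were split, at -35, 6 and 78 at 0, 0.29% and 0.54% CA. The last of these lay inside the stained range.

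The next was the EST probe set rc_aa848545_at. Its intensity was 34, 0, -12 and 29 on the microdissected arrays, against 15 to 251 (median 68) on stained arrays, where the 3 arrays with high 5S rRNA gave 26, 20 and 43. It fell by 2.47 on the log2 scale (SE 0.53, 5.53-fold lower; limma, adjusted p = 0.0169). In entire sections it ran from 49 to 158 and in dehydrated sections from 43 to 105, while the LCM-reference-time arrays gave 18, 19 and 33. The lowest stained value, 15, was on untreated replicate 7, which is none of those 3 arrays, and the highest microdissected value, 34, lay inside the stained range.

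**Figure D4:**
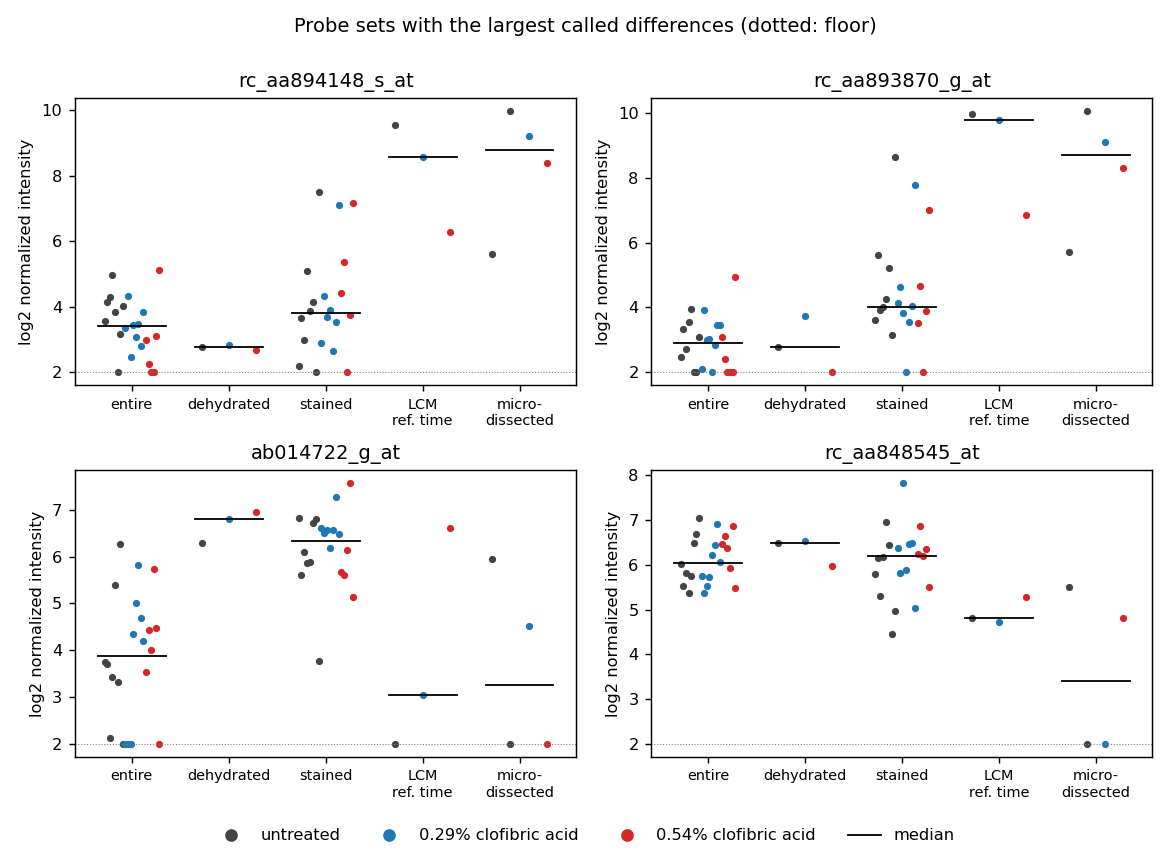
Log2 normalized intensity of the 4 probe sets on all 52 arrays by preparation, 1 point per array coloured by dose, with a line at the median and a dotted line at the floor of 2. For the upper pair the microdissected and LCM-reference-time arrays lie above most stained arrays, and for the lower pair 2 of the 4 microdissected arrays sit at the floor while all stained arrays are above it.

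The count of 186 was set beside the 5S rRNA signal and the brightness of the arrays. Without the 3 stained arrays of high 5S rRNA the calls rose to 787 (359 higher, 428 lower), and all 186 were among them. With the log2 5S rRNA signal as a covariate 4 were called (4 higher, 0 lower), and with the trimmed mean as a covariate 1 was called, while all 186 kept their sign under both. Without both microdissected arrays of a trimmed mean under 50, untreated array 2 and the 0.29% array, 8 were called (7 higher, 1 lower), and 167 of the 170 calls still tested kept their sign. These last 3 fits were chosen after seeing the data. The 3 stained arrays left out first were set apart by 5S rRNA, a measure that was itself added after its values were seen. They were the stained arrays nearest to the microdissected ones on it. The kept signs carry little weight, since the 186 were chosen on these same arrays. The 5S rRNA signal and the trimmed mean differed between the preparations themselves, so each cannot be told apart from microdissection in these arrays, and their part in the calls was not tested beyond these fits. With the GAPDH ratio as a covariate 138 were called (84 higher, 54 lower), and with the untreated arrays alone 30 (21 higher, 9 lower).

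The count also rested on single arrays. It was 476 without microdissected untreated array 1, 66 without untreated array 2, 34 without the 0.29% array and 280 without the 0.54% array. Leaving out a stained array gave 344 without untreated replicate 8, 357 without 0.29% replicate 7, 118 without untreated replicate 3, 109 without untreated replicate 5 and 118 without untreated replicate 6. It gave 115, 113, 111, 116 and 117 without 0.29% replicates 1 to 5 and 102 without 0.54% replicate 3. The other 9 stained arrays moved the count by 1.5 times at most. In every one of these leave-outs the 186 probe sets kept their sign. That was nearly fixed in advance, since the 186 were chosen on these same arrays. Of the probe sets with a mean log2 above that of an intensity of 66, 1 of 2064 was called, and it was higher.

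The 4 probe sets described above, chosen for large differences on these same arrays, kept their sign without any single array. Their calls did not all hold. At rc_aa894148_s_at the call was lost without microdissected untreated array 2 (3.55, limma adjusted p = 0.108) and without the 0.29% microdissected array (3.85, adjusted p = 0.133). At rc_aa893870_g_at it was lost without either of those (3.26 and 3.43, adjusted p = 0.164 and 0.223) and without the 0.54% array (3.71, adjusted p = 0.0709). For the same probe set it was also lost without any one of stained untreated replicates 1, 3, 4 and 5, stained 0.29% replicates 1, 2, 3 and 5, and stained 0.54% replicate 3, with adjusted p from 0.0501 to 0.0542. At ab014722_g_at the call was lost without untreated array 2 (adjusted p = 0.117), the 0.29% array (-2.68, adjusted p = 0.0699) or the 0.54% array (-2.02, adjusted p = 0.0736). At rc_aa848545_at it was lost without untreated array 2 (-1.99, adjusted p = 0.114) or the 0.29% array (-1.82, adjusted p = 0.196). A floor of 20 ended both lower calls, with ab014722_g_at at -1.41 (adjusted p = 0.0713) and rc_aa848545_at at -1.29 (adjusted p = 0.104). Array weights ended the calls of rc_aa894148_s_at (adjusted p = 0.0774), rc_aa893870_g_at (adjusted p = 0.108) and rc_aa848545_at (-1.81, adjusted p = 0.172), and the untreated arrays alone gave none of the 4 (adjusted p from 0.469 to 0.54). Over all alternatives the fitted differences ran from 1.53 to 5.13 and from 1 to 4.74 for the higher pair and from -3.35 to -1.16 and from -3.19 to -0.83 for the lower pair. Their adjusted p ran up to 0.86, 0.999, 0.70 and 0.992.

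**Figure D5:**
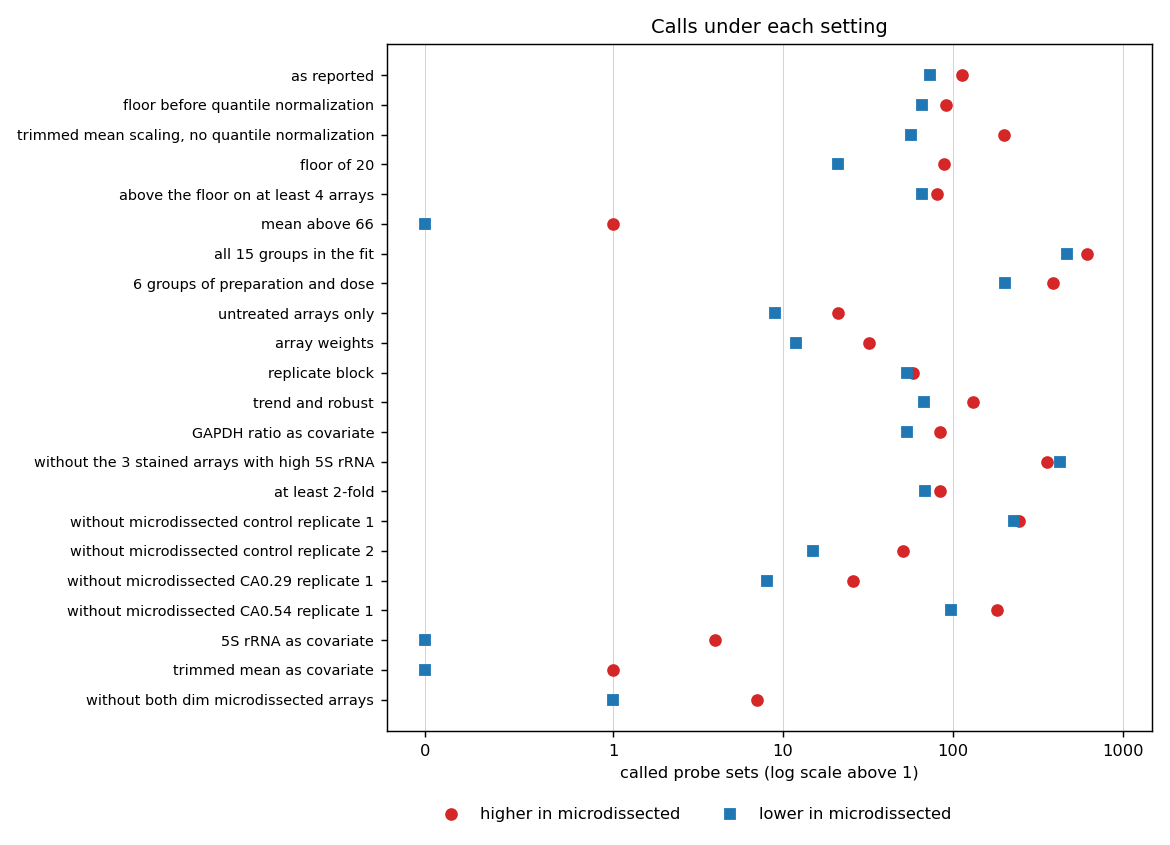
Number of probe sets called higher (red circles) and lower (blue squares) in microdissected than in stained sections under each setting, on an axis that is logarithmic above 1. The total runs from 1 with the trimmed mean as a covariate to 1088 with all 15 groups of arrays in the fit, against 186 as reported.

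Arrays that took no part in the comparison differed among themselves in the direction of these calls. Between the 3 LCM-reference-time and the 3 dehydrated-section arrays, LCM-reference-time was the higher in 92 of the 113 higher calls (81.4%, median difference 0.73) and the lower in 69 of the 73 lower calls (94.5%, median -1.60). Over all 8196 tested probe sets it was the higher in 48.5% and the lower in 45.1%, with a median of 0. This base was not matched for level. The 113 higher calls had a median log2 level of 2.20 in stained sections, near the floor of 2, and 22 were at the floor on every stained array. Where the dehydrated arrays are also at the floor, LCM-reference-time can only tie or be higher. Part of the 81.4% may thus be fixed in advance, and how large a part was not tested. Of the 73 lower calls, 39 lay at 20 to 66 and 23 at 66 to 200 in entire sections. At 66 to 200 the median log2 difference from entire sections was -0.51 to 0.007 on LCM-reference-time arrays. On dehydrated arrays it was 0.036 to 0.14. The 45.1% is thus no matched base for the 94.5% either. The LCM-reference-time arrays were also the dimmer ones, with trimmed means of 39.4, 62.0 and 84.3 against 86.9 to 122 in dehydrated sections, and the ones with more 5S rRNA. The part of these measures in the shared direction was not tested.

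Against the LCM-reference-time arrays themselves, the number of called differences depended on how the fit was made. With the spread pooled over these 7 arrays and the 20 stained arrays, and the single arrays assumed to vary like the others, 1 probe set was higher and 2 were lower of 8277 tested (limma, adjusted p under 0.05), which is 0.0362% (0.0121% higher, 0.0242% lower). At an unadjusted p under 0.05 there were 750, or 9.06%. All 3 calls had deposited intensities of 23 or less. The higher one, rc_ai639377_at, was 9, 12, 12 and 8 in microdissected and -12, 6 and -4 in LCM-reference-time sections (1.40 ± 0.24, SE, limma adjusted p = 0.0153). It was above the floor on only 4 of the 20 stained and 1 of the 3 LCM-reference-time arrays. Its small SE thus rests largely on floored values. The probe set l19112_g_at was 3, -12, -8 and 0 against 23, 10 and 15 (-2.40 ± 0.38, SE; adjusted p = 0.0119), and aj224156_s_at was at the floor on all 4 microdissected arrays against 18, 10 and 4 (adjusted p = 0.0149). The last was also at the floor on all 20 stained arrays, so it was tested only because of the LCM-reference-time arrays where it is high, its spread rests on floored values of no spread, and its p carries no weight. With all 15 groups in the fit 505 were called (250 higher, 255 lower), and with trimmed mean scaling 25 (9 higher, 16 lower). The fit of 15 groups added arrays and also gave each preparation and dose its own mean. Its count thus cannot be assigned to the arrays that supplied the spread. With a floor of 20 none of the 3 passed, and rc_ai639377_at did not pass without untreated array 2 (adjusted p = 0.062) or the 0.29% array (adjusted p = 0.0719). Without the 0.54% microdissected array 15 were called, and without untreated array 1, 5. With at most 1 LCM-reference-time array at each dose, this count does not show that the preparations are alike.

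Whether the difference between the preparations itself differed between treated and untreated liver was tested as an interaction. It passed in 15 of 8196 probe sets (6 higher and 9 lower with CA, 0.183%, or 0.0732% and 0.11%; limma, adjusted p under 0.05), beside 790 (9.64%) at an unadjusted p under 0.05. Rises were ranked only if above the floor on all 4 microdissected arrays, and falls only if above it on all 20 stained arrays. The largest rise so ranked was at rc_aa799461_at. Both untreated microdissected arrays gave 6 there and the treated ones 23 and 47, against 15 to 50 in untreated and 13 to 48 in treated stained sections (interaction 2.93 ± 0.51, SE, limma adjusted p = 0.00792). The largest fall so ranked was at j03819_at, with 40 and 17 in untreated and -16 and 8 in treated microdissected sections, against 14 to 37 and 17 to 39 in stained sections (interaction -2.74 ± 0.48, SE, limma adjusted p = 0.00792). Without the 0.29% array the value at j03819_at was -2.13 and did not pass (adjusted p = 0.12). In both cases the stained arrays overlapped between treated and untreated liver. With a floor of 20 there were 13 interaction calls, of which 0 were among these 15, and 6 of the 15 could still be tested. Leaving out a microdissected array gave 264 calls without untreated array 1, 25 without untreated array 2, 47 without the 0.29% array and 323 without the 0.54% array. With 2 arrays against 2 in the microdissected group, a single array sets much of this count.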

How the data were processed

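RNA from rat liver sections was measured on 52 single-colour oligonucleotide arrays, and the 4 microdissected and 20 stained-section arrays were compared. The deposited values are the authors' intensities, whole numbers per probe set that can be negative. For the scanner software and its scaling the entry is: not given in the sources used here. Intensities were quantile normalized over all 52 arrays, set to a floor of 4 (the 10th percentile of positive values) and put on a log2 scale. Scaling came before the floor, so that floored values are equal on all arrays. A probe set was tested where 1 or more arrays of the fit exceeded the floor. Linear models with dose as a 3-level factor were fitted by lmFit of limma 3.58.1 (R 4.3.3), moderated by eBayes, and two-sided p-values were adjusted by Benjamini-Hochberg over all tested. In the comparison with LCM-reference-time the stained arrays stayed in the fit to supply the spread. The interaction fit used 4 groups (preparation by CA) with dose within CA as a covariate. Array measures were compared by exact permutation within dose (Python 3.11.15). Figures were drawn with matplotlib 3.10.9.

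Probe sets were named by the largest called rise and fall, 1 per accession, above the floor on every array of the group where they were higher, and at most 2 in each direction. The planned rule by gene symbol and the marker lists could not be applied, since the IDs carry no symbols and 0 matched the RefSeq gene table (GRCr8). The groups, lists and rules were chosen with earlier results of these data known. Simulated data held 200 changed probe sets among 8196, drawn only from those well above the floor in stained sections. Noise was independent for each value. The fit recovered 43.5% of 2-fold and 84.5% of 4-fold changes, and 7.45% and 6.63% of its calls were false. These rates do not cover probe sets near the floor, where most of the higher calls lay, nor shifts of a whole array. The number of arrays limits the precision, with 1 microdissected array at each CA dose. The labels give no slide or scan batch. Alternatives covered scaling, floor, filters, samples in the fit, weights, covariates and leaving out each array.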

Additional observations from a re-analysis of the deposited data

Results flagged for a closer look

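Within groups of 4 to 8 arrays, an array was singled out when its gap to the nearest other array was large against the whole range of the group by Dixon's 95% criterion. This was so in 7 of 44 groups checked. Chance gives about 1 in 20 for independent groups. The 44 reuse the same arrays for linked measures and for probe sets named by their differences, so no excess over chance is shown.

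Among stained sections at 0.29% CA, replicate 7 stood apart on 4 values: it had the fewest probe sets above an intensity of 66 (1482), the largest share of signal in the 50 brightest probe sets (34.3%), the lowest trimmed mean (56.3) and the highest level of rc_aa894148_s_at (7.11 on the log2 scale). Among untreated stained sections, replicate 8 had the highest level of rc_aa893870_g_at (8.65) and the lowest of ab014722_g_at (3.76). Both arrays belong to the 3 with a 5S rRNA signal above 200. In the 0.29% stained group, replicate 6 had the highest level of ab014722_g_at (7.28).

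The difference between microdissected and stained sections itself differed between CA-treated and untreated liver in 15 probe sets (limma interaction, Benjamini-Hochberg adjusted p under 0.05), a count that ran from 25 to 323 when a microdissected array was left out.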

How the results depend on the processing

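The count of 186 probe sets was within 1.5 times under floor before normalization, trimmed mean scaling, presence above the floor on at least 4 arrays, a variance trend with robust fitting, the GAPDH ratio as a covariate and a 2-fold minimum. It was 110 with a floor of 20, 1 with a mean above 66, 1088 with all 15 groups in the fit, 591 with 6 groups of preparation and dose, 30 with untreated arrays only, 44 with array weights, 787 without the 3 stained arrays of high 5S rRNA, and, in fits chosen after seeing the data, 4 with 5S rRNA as a covariate, 1 with the trimmed mean as a covariate and 8 without both dim microdissected arrays. The 3 stained arrays of high 5S rRNA were also set apart by a measure added after its values were seen. Leaving out 1 array at a time gave 34 to 476. Of the 186, 60 were also called with the block below and 183 with all 15 groups. The 3 calls against LCM-reference-time became 25 with trimmed mean scaling, 5 with a floor of 20, 1 with the filter at 4 arrays, 505 with all 15 groups, 0 with array weights and 3 to 15 without 1 array; the 0 is by limma. The 15 interaction calls became 26, 6 and 2 with trimmed mean scaling, the filter at 4 arrays and array weights, and 25 to 323 without 1 array. The log2 GAPDH ratio difference ran from -0.36 to 0.08 without 1 array and turned positive without the 0.54% array (0.0804); the beta-actin difference ran from -0.91 to -0.58 and no longer passed without the 0.29% array (-0.577). The cause of these shifts was not tested. Arrays dim against the floor limit what could be seen of transcripts under 200.

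Replicate numbers showed no clear pairing of the arrays. Deviations from the fit of dose and preparation correlated by 0.03 on average between arrays of the same number (32 pairs, -0.39 to 0.48). Between others the mean was -0.02 (184 pairs, -0.42 to 0.41). The labels name no animal, so this does not exclude a pairing. The block ended the call of rc_aa848545_at (-2.75, limma adjusted p = 0.0574). With the replicate block the counts were 112 against stained sections, 2 against LCM-reference-time and 8 for the interaction.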
